A study of Homo sapiens with 6 samples.

Results

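The SMAD genes encode the proteins that carry signals of the TGF-beta superfamily from receptors at the cell surface to the nucleus. Members were taken by gene symbol from the deposited count and FPKM tables, and all 8 (*SMAD1* to *SMAD7* and *SMAD9*) were found among 20020 rows. All 8 were also among the 12856 genes with enough reads to be tested. The data are RNA immunoprecipitation sequencing (RIP-seq) of 786-O cells, an established human line of clear cell renal carcinoma: 3 libraries of RNA recovered with IGF2BP2 (RIP) and 3 libraries of input RNA. IGF2BP2 is a cytoplasmic RNA-binding protein known as one of the readers of the RNA mark N6-methyladenosine (m6A). The labels name no treatment or genetic change for either group, and they do not say whether replicates came from separate cultures, so the replicate spread behind each p-value may be technical only. The series title links m6A with TGF-beta and SMAD signalling, so the question asked was how each SMAD transcript stood in RIP relative to input. RIP over input includes whatever an antibody or beads would recover without IGF2BP2, since a control with an unrelated antibody is not part of this comparison.

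SMADs fall into classes by their place in the pathway. Receptor SMADs are phosphorylated by activated type I receptors: SMAD2 and SMAD3 mainly by TGF-beta and activin receptors, and SMAD1, SMAD5 and SMAD9 by receptors for bone morphogenetic proteins (BMPs). Phosphorylated receptor SMADs join the common partner SMAD4 and act on transcription in the nucleus. The inhibitory SMADs, SMAD6 and SMAD7, are induced by the same signals and restrain them, SMAD7 acting on TGF-beta and BMP signals and SMAD6 mainly on BMP signals.

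Libraries held 33872621 to 44045835 reads in RIP and 25773819 to 27226405 in input. The 8 genes together received 26749 to 35164 reads per RIP library and 14184 to 14985 per input library. Markers fixed for renal tubule and clear cell carcinoma were present, with *PAX8* at 151 FPKM in RIP and 108 FPKM in input. Exceptions were *NDUFA4L2*, with at most 41 reads in a library, and *LRP2*, at 0.0161 FPKM in RIP and 0.12 FPKM in input. *CA9* was low as well, at 0.979 FPKM in RIP and 5.38 FPKM in input. Summed over 6 genes each, endothelial markers reached 1.32 to 1.73 FPKM in RIP and 1.28 to 2.12 FPKM in input, fibroblast and smooth muscle markers 3.66 to 4.77 FPKM in RIP and 4.29 to 6.09 FPKM in input, and immune and blood markers 0.145 to 0.306 FPKM in RIP and 0.333 to 0.522 FPKM in input. In bulk RNA, fewer cells with a transcript and less of it per cell cannot be told apart.

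Every SMAD transcript was higher in RIP than in input under each scaling used, although *SMAD3* was not once a trend with gene length was removed. All 8 passed edgeR's quasi-likelihood test at a Benjamini-Hochberg adjusted p under 0.05, and none was depleted. Across all tested genes 40.7% were enriched and 42.0% depleted, so a call on its own was common. Enrichment here is relative to the other genes of the same libraries, and absolute recovery cannot be read from these counts. With library size alone as the scale 38.9% of all calls were enrichments, against 49.2% of calls with TMM scaling, the scaling used throughout. In each of the 8 genes the 3 RIP libraries lay above all 3 inputs in normalised CPM (read counts relative to each library's TMM-scaled size), a separation seen upwards in 40.9% of tested genes. The folds ranged from 1.28 for *SMAD3* to 3.52 for *SMAD9*. The value of *SMAD9* depended on the method: its log2 fold change was 1.82 by edgeR and 1.096 by limma on log2(FPKM + 1). That scale understates changes of low genes and also lacks TMM scaling. The value was 1.58 by edgeR with library size alone and 1.51 by limma on log2(FPKM + 0.1). The median log2 fold change of the family was 0.88, while that of all tested genes was -0.024, with quartiles of -0.79 and 0.68.

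**Figure D1:**
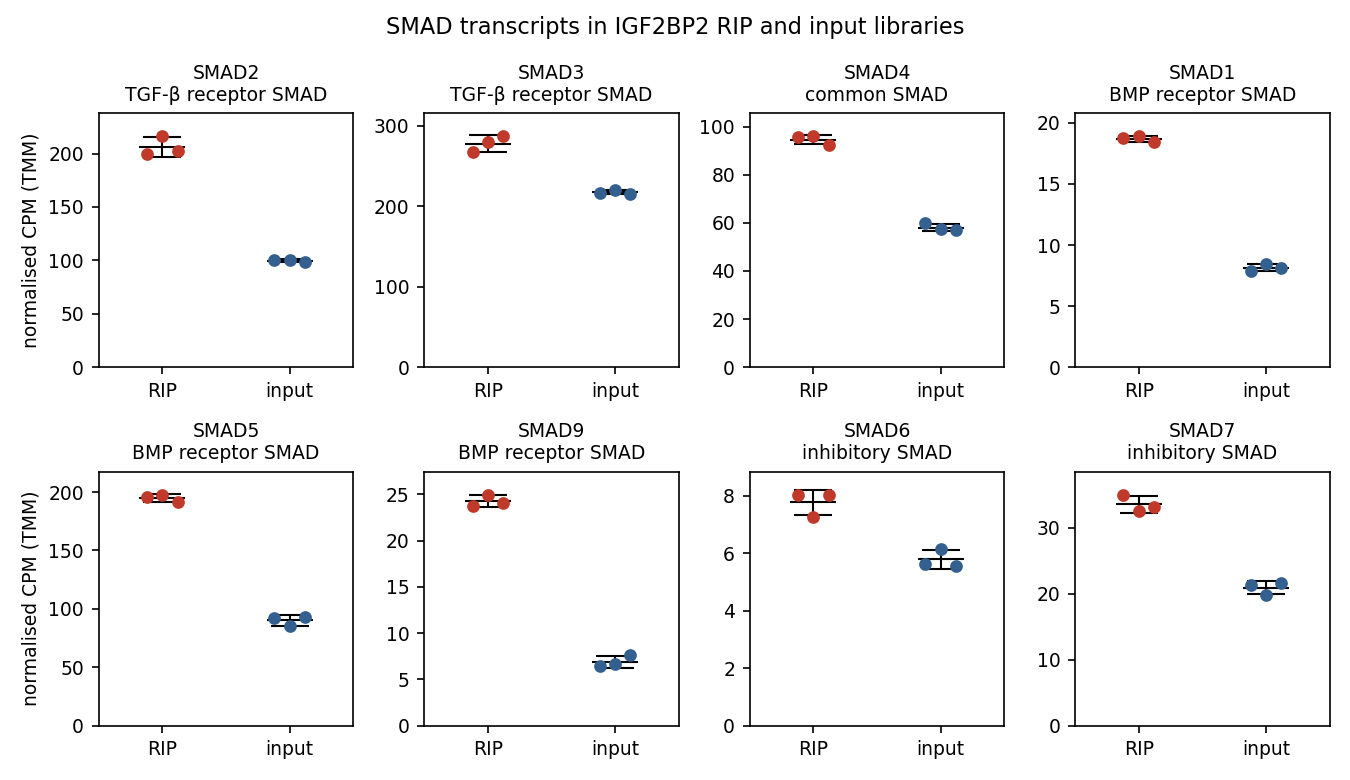
Normalised CPM of the 8 SMAD genes in each library, with 3 RIP libraries (red, left) and 3 input libraries (blue, right) per panel; points are libraries, and bars give the mean and SD. Each panel has its own axis, which starts at 0, and in every panel all RIP points lie above all input points.

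Of the receptor SMADs on the TGF-beta side, *SMAD2* was recovered with IGF2BP2 far more strongly than *SMAD3*. *SMAD2* (chromosome 18, 47808957 to 47930872, GRCh38) had 199, 216 and 203 normalised CPM in RIP libraries 1, 2 and 3, against 100.3, 100.2 and 98.2 CPM in the inputs. The groups lay far apart, with RIP library 1 the lowest of its group and input library 1 the highest of the inputs. The log2 fold change was 1.05 (SE 0.038, edgeR adjusted p = 1.86e-17), which placed *SMAD2* at percentile 86.0 of all tested genes. Each SE given with a fold change describes the spread among libraries and is not the error of the edgeR estimate.

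*SMAD3* (chromosome 15, 67065602 to 67195169) had the most reads of the family in every library. Its levels were 267, 279 and 287 normalised CPM in RIP, against 216, 220 and 215 CPM in input. The groups did not overlap, but the gap between the lowest RIP library and the highest input was much narrower than for *SMAD2*. The log2 fold change of 0.36 (SE 0.032, edgeR adjusted p = 9.93e-09) was the smallest of the 8 and stood at percentile 64.0. It did not pass a test against a 1.5-fold change (edgeR adjusted p = 1).

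*SMAD4*, the partner that receptor SMADs of both branches share (chromosome 18, 51030213 to 51085042), took a middle place. RIP libraries had 95.5, 96.0 and 92.3 normalised CPM, and inputs had 59.7, 57.3 and 57.0 CPM. The fold of 1.63 corresponded to a log2 fold change of 0.71 (SE 0.028, edgeR adjusted p = 2.75e-13).

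All 3 receptor SMADs of the BMP branch were enriched by more than 2-fold as tested, and so was *SMAD2* (2.07-fold). With library size alone as the scale, *SMAD1* (log2 fold change 0.96) and *SMAD5* (0.87) were under 2-fold. With the gene length trend removed *SMAD5* (0.69) was under 2-fold as well. Of the BMP receptor SMADs, *SMAD5* (chromosome 5, 136132845 to 136182733) was the most abundant. It had 196, 198 and 191 normalised CPM in RIP and 92.4, 85.0 and 92.9 CPM in input. Its enrichment was 2.17-fold (log2 fold change 1.11, SE 0.044, edgeR adjusted p = 8.97e-18). *SMAD1* (chromosome 4, 145480770 to 145559176) had a lower level, 18.7, 18.9 and 18.4 CPM in RIP against 7.85, 8.43 and 8.13 CPM in input.

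The *SMAD1* values gave a 2.30-fold enrichment (log2 fold change 1.20, SE 0.031, edgeR adjusted p = 8.9e-13), and its RIP libraries differed from each other by little. *SMAD9*, also known as SMAD8 (chromosome 13, 36844831 to 36920854), had the highest fold of the family. Its levels were 23.71, 24.97 and 24.06 normalised CPM in RIP, against 6.41, 6.62 and 7.63 CPM in input, so the groups were well separated. The log2 fold change was 1.82 (SE 0.080, edgeR adjusted p = 3.03e-16), at percentile 97.9 of all tested genes. These values rest on 751 to 1006 reads per RIP library and 182 to 214 per input library.

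As tested, the inhibitory SMADs were enriched less than the BMP receptor SMADs. *SMAD7* was enriched more than *SMAD3* (log2 fold change 0.36). For *SMAD6* (0.42) the order against *SMAD3* is not resolved. Its confidence interval, 0.20 to 0.65, contains that of *SMAD3*, 0.27 to 0.44, and the difference between them was not tested. With the gene length trend removed, *SMAD7* (log2 fold change 0.78) stood above *SMAD5* (0.69). *SMAD7* (chromosome 18, 48919853 to 48950965) had 35.0, 32.5 and 33.1 normalised CPM in RIP and 21.4, 19.7 and 21.6 CPM in input, a difference of 1.605-fold (log2 fold change 0.68, SE 0.052, edgeR adjusted p = 4.49e-10). *SMAD6* (chromosome 15, 66702236 to 66782849) was the member with the fewest reads, 250 to 293 per RIP library and 156 to 183 per input library. It stood at 8.04, 7.27 and 8.01 CPM in RIP, against 5.64, 6.15 and 5.56 CPM in input.

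The gap between the groups was small for *SMAD6*, with RIP library 2 closest to the inputs. Its log2 fold change was 0.42 (95% interval 0.20 to 0.65, edgeR adjusted p = 0.00096). On the FPKM scale, which uses library totals only, RIP library 2 had 1.74 FPKM and fell below input library 2 at 1.76 FPKM. With library size alone as the scale *SMAD6* did not pass the edgeR test (log2 fold change 0.18, adjusted p = 0.123).

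Long genes tended to be enriched in this experiment: across the 12856 tested genes, log2 fold change and gene length had a Spearman rho of 0.44, given as a description because genes share the same libraries. Lengths here are the whole numbers that relate the deposited counts to the deposited FPKM. The family's median length was 6705 nt, against 3981 nt for all tested genes. The members spanned a wide range, from 3374 nt for *SMAD1* to 35403 nt for *SMAD2*.

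After the trend with length was removed, 7 of the 8 SMADs were still enriched, and 40.2% of all tested genes were enriched and 40.0% depleted in that fit. The family's median log2 fold change became 0.61. *SMAD3* no longer passed (log2 fold change -0.066, edgeR adjusted p = 0.115), and *SMAD4* dropped to 0.20 (adjusted p = 0.000308). *SMAD2* kept 0.53 and *SMAD5* 0.69. Only 3 tested genes were longer than *SMAD2*, so the curve there rests on few genes.

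The shorter members, *SMAD1*, *SMAD6* and *SMAD7*, changed little, at corrected log2 fold changes of 1.31, 0.42 and 0.78. *SMAD9*, of intermediate length at 5558 nt, stayed highest at 1.55, which was percentile 94.99 of that fit, and *SMAD1* reached percentile 91.9. The order within the BMP branch was the same in both fits, with *SMAD9* above *SMAD1* and *SMAD1* above *SMAD5*.

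**Figure D2:**
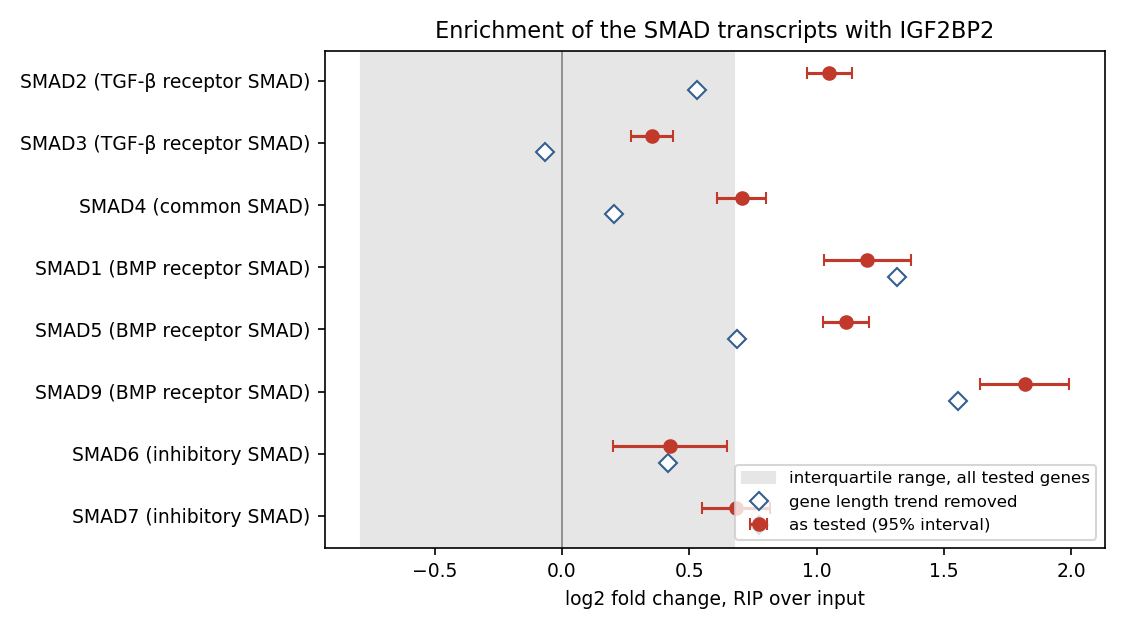
Log2 fold change of RIP over input for each SMAD gene as tested (red circles, with 95% intervals) and after removal of the gene length trend (open diamonds); the grey band runs from the first to the third quartile of all tested genes, -0.79 to 0.68. *SMAD9* lies highest in both fits, and *SMAD3* moves from 0.36 to -0.066.

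Because both genes of a pair share a library's depth and scaling, ratios of their reads within a library do not depend on either. Such ratios still carry the trend with gene length, since the members of a pair differ in length. For 6 pairs the difference of this log2 ratio between groups was tested with a two-sided exact permutation test over the 6 libraries, which cannot give a p under 0.1. The ratio of *SMAD2* to *SMAD3* reads was -0.43 ± 0.067 in RIP and -1.12 ± 0.012 in input (log2, mean ± SD, n = 3 each). *SMAD2* thus gained 1.62-fold on *SMAD3* in RIP (difference 0.69, SE 0.039, exact p = 0.1, 0.12 adjusted over the 6 pairs), and the groups did not overlap. Against *SMAD4*, *SMAD2* gained 0.34 and *SMAD3* lost ground, with a difference of -0.35 (exact p = 0.1 for each).

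Within the BMP branch, *SMAD9* gained on *SMAD5* by 0.70 on the log2 scale (SE 0.074), with ratios of -3.01 ± 0.033 in RIP and -3.71 ± 0.12 in input (n = 3 each, exact p = 0.1). The ratio of *SMAD1* to *SMAD5* was -3.38 ± 0.0055 in RIP and -3.47 ± 0.12 in input, the difference was 0.083 (SE 0.068, exact p = 0.4), and the RIP values lay inside the input range. This difference was 0.039 without input library 1 and 0.15 without input library 2. It does not show equal recovery per length: with the length trend removed, the log2 fold change was 1.31 for *SMAD1* and 0.69 for *SMAD5*. That gap was not tested. *SMAD6* fell relative to *SMAD7* by 0.26 (SE 0.092, exact p = 0.1), without overlap between the groups. These tests show only whether libraries separated, and their smallest possible p lies above 0.05.

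Levels of different genes can be compared only per length, and on the FPKM scale *SMAD3* was the leading SMAD of these cells. It averaged 32.5 ± 1.153 FPKM in RIP and 30.0 ± 0.501 FPKM in input (SD, n = 3 each). *SMAD5* came next at 22.4 ± 0.324 FPKM in RIP and 12.2 ± 0.538 FPKM in input. *SMAD7* followed at 8.96 ± 0.389 FPKM in RIP and 6.59 ± 0.290 FPKM in input.

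*SMAD4* stood close below *SMAD7*, at 8.38 ± 0.165 FPKM in RIP and 6.07 ± 0.118 FPKM in input. *SMAD2* and *SMAD1* had the fifth and sixth places in both groups, at 5.35 ± 0.208 and 5.09 ± 0.055 FPKM in RIP and 3.06 ± 0.039 and 2.62 ± 0.112 FPKM in input. Ranges of neighbouring genes in this order did not overlap within a group, although those of *SMAD7* and *SMAD4* and of *SMAD2* and *SMAD1* were separated by little. The place of *SMAD2* depends on its very long gene model: by reads alone it made up 24.0% of the SMAD reads in RIP and 19.7% in input.

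The order changed between groups only at its end. *SMAD9* was above *SMAD6* in RIP, at 4.01 ± 0.088 and 1.87 ± 0.113 FPKM, and below it in input, at 1.35 ± 0.131 and 1.64 ± 0.0994 FPKM. Summed, the 8 genes made up 88.6 ± 0.497 FPKM in RIP and 63.6 ± 0.276 FPKM in input, and 0.0789% of reads in RIP against 0.055% in input.

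The make-up of this sum shifted between the groups. *SMAD3* supplied 36.7 ± 1.11% of the summed SMAD FPKM in RIP and 47.2 ± 0.906% in input, so its share was lower in RIP although its own level was higher. The share of *SMAD5* was 25.3 ± 0.472% in RIP and 19.2 ± 0.793% in input, and that of *SMAD9* was 4.53 ± 0.087% in RIP and 2.12 ± 0.197% in input. *SMAD4* and *SMAD7* held nearly the same shares in both groups, *SMAD4* 9.46 ± 0.227% in RIP and 9.55 ± 0.216% in input, and *SMAD7* 10.1 ± 0.491% in RIP and 10.4 ± 0.425% in input.

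Among the 5 receptor SMADs, *SMAD2* and *SMAD3* together made up 53.6%, 54.5% and 55.6% of the FPKM in the RIP libraries, against 66.9%, 68.3% and 66.2% in the inputs. Counted as reads, their share was 67.0 ± 0.781% in RIP and 75.1 ± 1.0% in input. The BMP receptor SMADs therefore took a larger part of the receptor SMAD transcripts in every RIP library than in any input, on either scale. These shares are descriptions and were not tested.

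**Figure D3:**
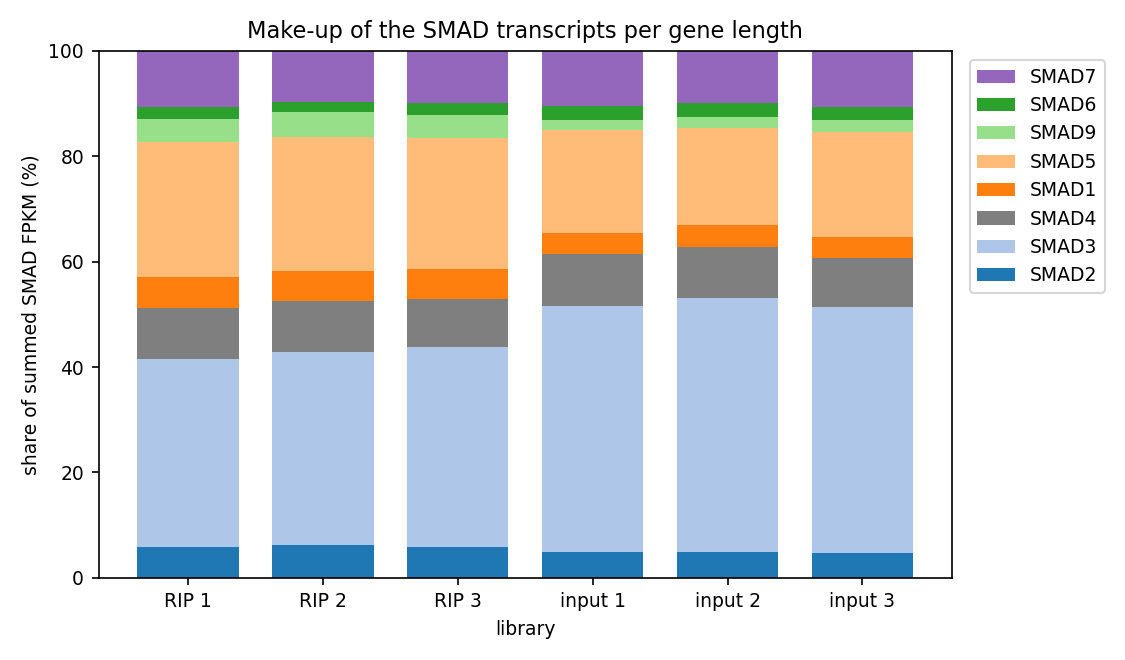
Share of each SMAD gene in the summed FPKM of the 8 genes, in percent, for each RIP library (left) and each input library (right). The *SMAD3* band is narrower in the RIP libraries (36.7% on average) than in the inputs (47.2%), and the *SMAD5* band is wider (25.3% and 19.2%).

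Genes that work with the SMADs were read from the same fit. The lists for these genes were chosen with earlier results of the data known, and none was tested as a set; *SKIL* and *SMURF1* count in both lists that hold them. Nuclear partners and coactivators had the median nearest to that of the SMADs, with 11 of 15 tested genes enriched (73.3%, against 40.7% of all tested genes), 2 depleted (13.3%, against 42.0%) and a median log2 fold change of 0.92. *RUNX2*, a runt-domain transcription factor that binds receptor SMADs, had a log2 fold change of 2.12 and averaged 571 normalised CPM in RIP and 131 CPM in input. *SMARCA4*, the chromatin remodelling ATPase, had one of -1.01.

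Receptors, which activate the SMADs, were 6 enriched and 2 depleted of 11 tested (54.5% and 18.2%, against 40.7% and 42.0% of all tested genes), with a median of 0.21. *TGFBR2*, the type II TGF-beta receptor, had the highest log2 fold change among them (1.45), and *ACVR2A*, an activin type II receptor, the lowest (-0.36). Ubiquitin ligases and deubiquitinases that act on SMADs or their receptors were 8 enriched and 5 depleted of 15 (53.3% and 33.3%, against the same shares of all tested genes), with a median of 0.23. Here *RNF111*, which encodes the ligase Arkadia that degrades SMAD7, was at 1.41 and *STUB1*, a ligase of the chaperone system, at -1.37.

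Against the same background, genes listed as corepressors were 5 enriched and 3 depleted of 9 (55.6% and 33.3%). They ran from *SIN3A*, the scaffold of a histone deacetylase complex, at 1.49 to *SNW1*, a splicing-associated protein that binds SKI, at -2.14. Whether each of them acts as a corepressor in these cells was not examined. Anchors, phosphatases and nuclear transport factors were 7 enriched and 4 depleted of 12 (58.3% and 33.3%), from the endosomal adaptor *HGS* at 0.68 to the exportin *XPO1* at -0.73. Of the transcripts that SMADs induce, 5 were enriched and 9 depleted of 14 (35.7% and 64.3%, against 40.7% and 42.0% of all tested genes), with a median of -0.36. Their ends were *SKIL*, a corepressor induced in feedback, at 0.53 and the BMP target *ID3* at -2.28. The genes of this last list were short (median 2396.5 nt). With the length trend removed 6 of the 14 were enriched and 3 depleted, with a median of 0.068. Of all tested genes in that fit 40.2% were enriched and 40.0% depleted. With that trend removed, receptors (0.014), ligases (-0.13), corepressors (-0.04) and anchors (-0.048) had medians near 0, while nuclear partners kept 0.64. Whether any of these lists differed from the SMAD family was not tested.

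**Figure D4:**
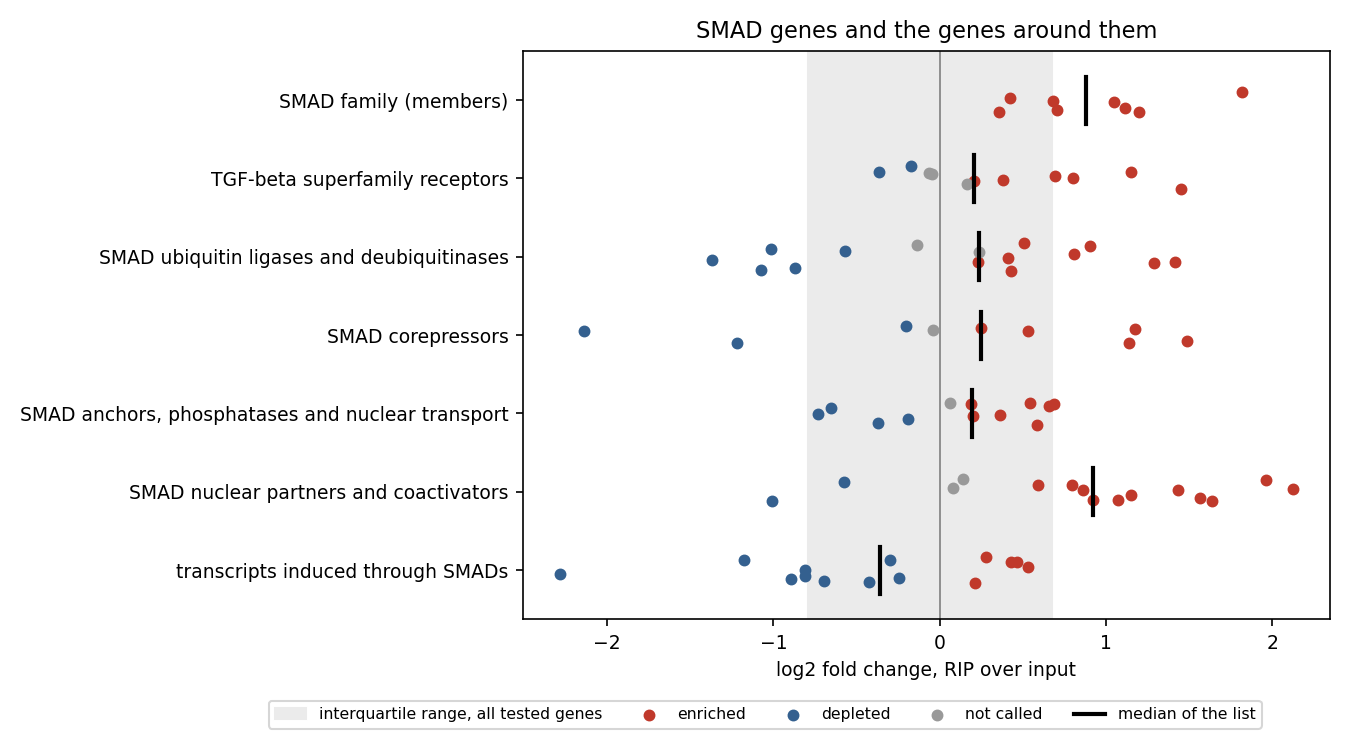
Log2 fold change of RIP over input for each tested SMAD gene and for genes of 6 lists around them; points are genes (red enriched, blue depleted, grey not called), black bars are list medians, and the grey band runs from the first to the third quartile of all tested genes. All 8 SMADs lie to the right of 0 (*SMAD3* does not with the length trend removed), whereas each of the other lists has genes on both sides.

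For each SMAD, the most similar other gene was found by the distance between centred log2 CPM values over the 6 libraries, among 9909 other tested genes that averaged 5 CPM or more. These were *SFT2D2* for *SMAD2*, *CLDN2* for *SMAD3*, *CCDC14* for *SMAD4*, *SEC23IP* for *SMAD1*, *GPR160* for *SMAD5*, *KANSL1* for *SMAD9*, *GLTP* for *SMAD6* and *CDHR1* for *SMAD7*. The distances ran from 0.017 for *SMAD5* to 0.070 for *SMAD9*. With 2 groups of similar replicates, this distance mostly compares the fold of RIP over input. *SEC23IP* had a log2 fold change of 1.19, for example, against 1.20 for *SMAD1*. A close match among so many genes therefore shows a similar fold only, not a shared function or regulation.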

How the data were processed

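RIP and input libraries (3 each) were grouped and numbered from the sample titles. Per the submitters' processing notes, fastp 0.23.2, STAR 2.7.10a, featureCounts and DESeq2 were used with the build hg38. Which gene annotation and strand setting were used, and what was done with multiply aligned reads, is not given in the sources used here. Without a stated strand, reads of *SMAD1*, *SMAD3* and *SMAD5* and of the antisense RNAs that overlap them cannot be told apart. *SMAD2* overlaps the pseudogene *MTCO2P2*, which is not among the deposited genes, and how reads aligned there were counted is not known. The authors deposited raw read counts per gene symbol and FPKM values for the same genes. The FPKM are the counts divided by a gene length and the column total. Coordinates are RefSeq gene spans (GRCh38.p14).

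From the counts, genes were filtered with filterByExpr, scaled with TMM and tested with edgeR 4.0.16 (robust quasi-likelihood, no covariate besides the group; R 4.3.3), with Benjamini-Hochberg adjustment over all 12856 genes. SEs use the variance of log2 CPM within each group, and intervals from the quasi-likelihood fit. The length trend was removed with loess offsets (span 0.3). Pair ratios had 0.5 reads added to each count. Scripts were tested on simulated data. In the simulation that checked the calls, far fewer genes changed than were called here, so it did not test scaling under changes this widespread. Alternatives were other scalings, DESeq2 1.42.0, limma 3.58.1 (voom, and log2 of FPKM plus 1 or 0.1), other filters, testing against 1.5-fold, a replicate block and leaving out each library. Counting error weighs most on *SMAD6*, *SMAD9* and *SMAD1*, with 156 to 251 reads per input library. Replicates differed by more than sampling noise (chi-square per gene 3.43 to 8.47).

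The members and lists were chosen with earlier results of these data known. Of each list, the text names the called gene with the highest and the lowest log2 fold change among those with a mean of at least 5 CPM.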

Additional observations from a re-analysis of the deposited data

How the results depend on the processing

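Every SMAD gene but *SMAD3* and *SMAD6* kept its direction and its call under all 19 alternatives, and no SMAD was called depleted in any of them. The number of enriched SMADs was 6 to 8. *SMAD3* fell to -0.066 on the log2 scale when the length trend was removed (edgeR adjusted p = 0.115) and to -0.067 when it was removed with the replicate block (adjusted p = 0.151). *SMAD3* (0.36) and *SMAD6* (0.42) did not pass a test against a 1.5-fold change, which called 2973 genes enriched and 3358 depleted, against 5232 and 5403 in the test against 0. *SMAD6* was also not called with library size alone as the scale (0.18) or by limma on log2(FPKM + 1) (0.12) and on log2(FPKM + 0.1) (0.18). By limma on log2(FPKM + 1) the log2 fold changes of *SMAD1* (0.75), *SMAD2* (0.65), *SMAD3* (0.11), *SMAD4* (0.41), *SMAD5* (0.82), *SMAD7* (0.39) and *SMAD9* (1.096) were smaller than by edgeR but kept their calls. The same genes were also smaller but kept their calls with library size alone: *SMAD1* (0.96), *SMAD2* (0.81), *SMAD3* (0.11), *SMAD4* (0.47), *SMAD5* (0.87), *SMAD7* (0.44) and *SMAD9* (1.58). The cause of the lost calls was not tested. The median of all tested genes was -0.11 with upper-quartile scaling and -0.26 with library size alone. The SMAD median was then 0.79 and 0.64. Leaving out any 1 library kept all 8 calls. Same-numbered RIP and input libraries showed no visible shared deviation, with correlations of 0.036, -0.046 and 0.035. This cannot tell whether they came from the same material. With the replicate block 5210 genes were enriched and 5390 depleted. The 6 pair ratios kept their direction with 2 reads added and without any 1 library. The 156 to 183 input reads of *SMAD6* limit its precision.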
